A study of Drosophila melanogaster with 72 samples.

Results

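Clk, cyc, vri, Pdp1, cwo and cry are 6 of the 13898 genes listed in the tables of fly brain RNA. They form the second, interlocked feedback loop of the circadian clock and its light input. They were chosen by name for those roles, with earlier results of these data known. Their rows were followed across all 24 groups of 3 libraries.

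In Drosophila, the proteins CLK and CYC pair up and bind E-box elements, where they switch on per and tim, whose products later shut CLK and CYC off. The same pair also switches on vri and Pdp1. VRI, a basic zipper repressor, lowers Clk transcription, and PDP1, an activator that binds similar sites, raises it. CWO, a repressor of the Orange family, competes with CLK and CYC at E-boxes. CRY is a blue light photoreceptor that triggers the degradation of TIM, which lets light reset the clock. In a dissected brain these genes are known from clock neurons, and several of them also from glia and from photoreceptors.

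The 72 libraries hold RNA of whole brains, with 15 brains pooled for each. iso31, an isogenic laboratory strain, gave 6 undisturbed groups, kept in a light and dark cycle at 25 °C and dissected at zeitgeber time (ZT, hours after lights on) 0, 4, 8, 12, 16 or 20. The same strain gave 3 shaken groups, vortexed for 2 s in every 20 s at random moments over 3, 6 or 12 h, with dissection at ZT0. A further 15 groups came from 5 GAL4 lines, in which a fly enhancer drives the yeast activator GAL4 in a set of neurons. Apart from the title hot cell for the line HC, the labels do not name those neurons.

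Each GAL4 line had 3 arms. TrpA1 29C flies carried GAL4 and UAS-TrpA1, a cation channel opened by warmth, and were shifted from 21 to 29 °C. TrpA1 21C flies had the same genotype and stayed at 21 °C. GAL4 control 29C flies lacked UAS-TrpA1 and were shifted to 29 °C. Per the labels, 4 lines are wake-promoting: R21H11, R65H02, R60F09 and HC, spelled out as hot cell. Their shift lasted the final 3 h of the night, and brains were taken at ZT0. R85C10 is labelled sleep-promoting, with activation over the 12 h of daytime and brains taken at ZT12, although its titles name sleep deprivation. No arm lacked both the transgene and the warm shift, so GAL4 control 29C and TrpA1 21C differ in genotype and in temperature, which cannot be told apart between them.

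The estimated counts per library summed to between 4175587 and 13435817, with a median of 8437310. The 8 neuronal marker genes summed to between 6338 and 12614 CPM (counts scaled by library size) in every library, and the 7 muscle markers to between 3.2 and 330.3 CPM. The TrpA1 transcript had a mean between 7.66 and 10.2 CPM in the iso31 groups and between 10.7 and 14.3 CPM in the GAL4 controls. It reached 305 ± 10.1 CPM (SD, n = 3) in R85C10 TrpA1 21C and 135 ± 6.42 CPM in R85C10 TrpA1 29C. It was 26.4 ± 2.08 CPM in HC TrpA1 29C but 13.8 ± 1.87 CPM in HC TrpA1 21C, labelled with the same genotype. The HC TrpA1 21C libraries overlapped those of the HC GAL4 control, at 11.5 ± 2.04 CPM, which lacks the transgene. Results of the HC line below rest on the label of HC TrpA1 21C. The share of estimated counts from mitochondrial genes averaged 2.62% at undisturbed ZT0, 4.82% at ZT20 and 6.38% after 6 h of shaking.

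Compared per transcript length, in TPM (abundance corrected for length), the 6 genes sat at very different levels. Pdp1 had the highest TPM of the 6 in 72 of 72 libraries, with a median of 378 TPM. The median was 93.3 TPM for cry, 61.3 TPM for cyc, 29.2 TPM for cwo, 6.19 TPM for vri and 4.11 TPM for Clk. Clk had the lowest TPM of the 6 in 51 libraries and vri in the other 21. The ratio of cyc to Clk was 12.1 ± 2.32 (SD, n = 3) at undisturbed ZT0 and 37.4 ± 7.79 at ZT12. The ratio of Pdp1 to vri was 87.6 ± 7.21 at ZT0 and 9.87 ± 2.27 at ZT12. These are levels of whole genes, since the tables do not separate isoforms, and the annotation lists 13 transcripts of Pdp1 against 1 each of cyc and cry. It places Clk, cyc and Pdp1 on chromosome arm 3L, vri on 2L, and cwo and cry on 3R. Of the exonic bases of cry, 17.8% overlap other annotated genes, most of them lncRNA:CR46393 on the same strand, so part of its signal could come from that RNA.

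Between groups, vri moved most. Its highest group mean, in R85C10 GAL4 control 29C, was 22.8 times its lowest, in HC TrpA1 21C. The same ratio was 8.64 for Clk and 4.30 for cry. For cwo it was 1.91, for Pdp1 1.70 and for cyc 1.64. Clk was thinly covered, with as few as 6.01 estimated counts in a library, so its values carry the largest counting error of the 6. The number of libraries per group also limits every comparison below: tests measure the spread between 3 pools of brains.

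In undisturbed iso31 brains, vri, Clk and cry changed with time of day, vri in the opposite direction to the other two. Of 9242 genes tested across the 6 times with edgeR's quasi-likelihood test and Benjamini-Hochberg adjustment, 15.1% were called at an adjusted p under 0.05. Of the 6 clock genes, 3 were called, vri with an adjusted p of 4.26e-08, cry with 3.94e-07 and Clk with 0.00233. Fewer cells that express a gene and less RNA per cell cannot be told apart in such pools.

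**Figure D1:**
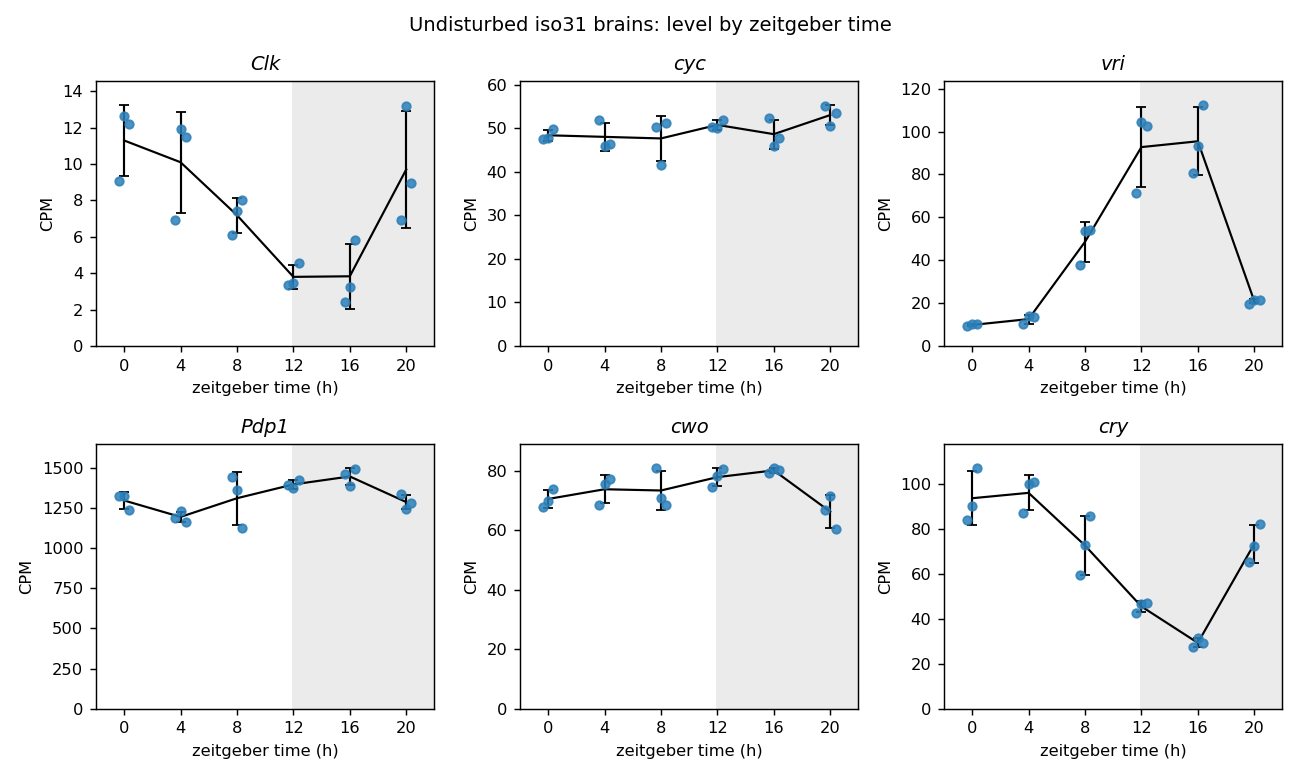
Level of each gene (CPM, vertical axis) against zeitgeber time (hours, horizontal axis) in undisturbed iso31 brains, with 1 point per library, a line through the means with SD bars (n = 3) and the hours from ZT12 on shaded grey. The vri libraries are highest at ZT12 and ZT16 and Clk and cry lowest there, while cyc, Pdp1 and cwo stay within narrow bands.

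The repressor gene vri stood at 9.16, 10.2 and 10.2 CPM in the 3 libraries of ZT0. At ZT12 it was at 71.4, 104.3 and 102.5 CPM, and at ZT16 at 80.6, 93.4 and 112.3 CPM. Every ZT12 and ZT16 library was above every library of the other 4 times. From ZT0 to ZT12 vri rose by 3.23 on the log2 scale (SE 0.19), which is 9.37-fold (edgeR, adjusted p = 1.19e-07). From ZT4 to ZT16 it was 7.61-fold higher (edgeR, adjusted p = 2.93e-07). At ZT20 it was back to between 19.8 and 21.7 CPM, below its ZT8 libraries at 38.0, 53.8 and 54.0 CPM (log2 difference -1.22, SE 0.18, edgeR adjusted p = 0.000605).

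Clk, the gene that VRI represses, ran the other way. Its libraries stood at 9.07, 12.6 and 12.2 CPM at ZT0 and at 3.37, 3.47 and 4.57 CPM at ZT12. At ZT16 they were at 2.44, 3.23 and 5.83 CPM. No library of ZT12 or ZT16 reached the lowest of ZT0, ZT4, ZT8 or ZT20. Clk fell from ZT0 to ZT12 by 1.58 on the log2 scale (SE 0.29, edgeR adjusted p = 0.0117), or 2.98-fold. That call ended without ZT0 replicate 2 or 3 or ZT12 replicate 1 or 2, with adjusted p between 0.0646 and 0.0963. From ZT4 to ZT16 it fell by 1.41 (SE 0.30, edgeR adjusted p = 0.0405). This second call was lost in 12 of the 18 fits that left out 1 library (adjusted p up to 0.226), those without any ZT0 library, ZT12 replicate 1 or 2, ZT16 replicate 1 or 2, ZT20 replicate 3, ZT4 replicate 2 or 3, or ZT8 replicate 1 or 2. The difference among all 6 times was called in each of those 18 fits.

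The photoreceptor gene cry stood at 83.7, 89.9 and 107.1 CPM at ZT0 and at 87.0, 100.1 and 100.8 CPM at ZT4. Its lowest values were 27.3, 31.3 and 29.4 CPM at ZT16, below the 42.6, 46.7 and 47.2 CPM of ZT12. Neither set overlapped any other time. By ZT20 cry was at 65.4, 72.3 and 82.1 CPM, overlapping ZT8 at 59.3, 72.7 and 85.7 CPM. It fell by 1.05 on the log2 scale from ZT0 to ZT12 (SE 0.12, edgeR adjusted p = 6.79e-05) and by 1.72 from ZT4 to ZT16 (SE 0.12, edgeR adjusted p = 1.85e-07), which is 3.29-fold.

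These single contrasts were rare among all genes. Between ZT0 and ZT12, 0.628% of the 9242 genes were called, and 3 of the 6 were among them. Between ZT4 and ZT16 it was 0.552%, again with vri, Clk and cry. Between ZT8 and ZT20, where 21% of genes were called, vri was called alone.

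The other 3 genes varied little. The libraries of cyc, whose RNA is known to be about constant over the day, lay between 41.6 and 55.01 CPM at all 6 times, with a largest log2 difference between group means of 0.14 (edgeR adjusted p = 0.64). Pdp1 was lowest at ZT4, at 1189, 1229 and 1166 CPM, and highest at ZT16, at 1462, 1387 and 1491 CPM. Those groups did not overlap, and the log2 difference between them was 0.27 (edgeR adjusted p = 0.0952 over the 6 times). The call for Pdp1 turned on the method: adjusted p was 0.018 with an offset that removes each library's trend with gene length, 0.0152 in DESeq2 and 0.00171 in limma on log2(TPM + 1). It was also called without ZT8 replicate 1 (adjusted p = 0.0297) or ZT8 replicate 3 (0.00611). For cwo the largest log2 difference was 0.28 (edgeR adjusted p = 0.0867), between ZT16, at 79.4, 80.8 and 80.3 CPM, and ZT20, at 66.9, 71.5 and 60.4 CPM. The cwo call was made in limma on log2(TPM + 1) (adjusted p = 0.00418) and in edgeR without ZT20 replicate 2, ZT4 replicate 1, or ZT8 replicate 1 or 3 (adjusted p 0.0374 to 0.0466).

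A cosine of 24 h fitted to log2 CPM placed the peak of vri at ZT 13.1 ± 0.19 h (SE) and that of per at ZT 13.3. The fitted peak of tim came later, at ZT 15.6 ± 0.20 h. Clk peaked at ZT 1.34 ± 0.61 h and cry at ZT 2.50 ± 0.45 h. The fitted distance from peak to trough was 3.62 log2 units for vri, 1.70 for Clk and 1.59 for cry. Pdp1, with a fitted peak at ZT 14.7 ± 1.0 h, spanned 0.23 log2 units. For cwo the span was 0.18 and for cyc 0.10, and a cosine accounted for 14.9% of the variance of cyc.

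Other genes of the clock were read beside these 6 from lists, also chosen with earlier results of these data known. Where 15.1% of all genes were called across the 6 times, 4 of 12 other clock genes were: the repressors per and tim and the kinase genes dco and sgg, whose products phosphorylate PER and TIM. per went from 34.2 ± 3.7 CPM (SD, n = 3) at ZT0 to 93.7 CPM at ZT16, and tim from 41.5 CPM at ZT4 up to 388 CPM at ZT16. Of 11 regulators of CLK or CRY, 3 were called: the chromatin remodeller gene brm, BRWD3 and the ubiquitin protease gene Usp8. Of 16 clock output genes, 4 were called, among them the sodium leak channel gene na and the neuropeptide gene NPF. The median of the largest log2 difference was 0.26, 0.31 and 0.32 in these lists and 0.32 over all genes tested. Of the genes named here, dco, sgg, brm, BRWD3, Usp8 and na had their lowest mean at ZT20 and NPF its highest. brm was at 132 CPM at ZT20 and between 158 and 168 CPM at the other times. Usp8 was highest at ZT12, at 74.0 CPM. The mitochondrial share averaged 4.82% at ZT20 and between 2.45% and 2.62% at the other times, and its part in these calls was not tested. Between ZT0 and ZT12, per and tim were called, with log2 differences of 1.37 and 1.54, and 0 of the 27 genes of the other lists.

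Tissue carried along with the brain varied between libraries. The 13 photoreceptor markers summed to between 1448 and 5352 CPM at ZT0 and to between 2433 and 7882 CPM at ZT12, and 0 of 13 were called over the 6 times. The 7 fat body markers summed to between 392 and 939 CPM at ZT0 and to between 462 and 2020 CPM at ZT12, with Lsp2, fit and Fbp1 at 0 in at least 1 library. Their part in the levels of the clock genes was not tested.

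**Figure D2:**
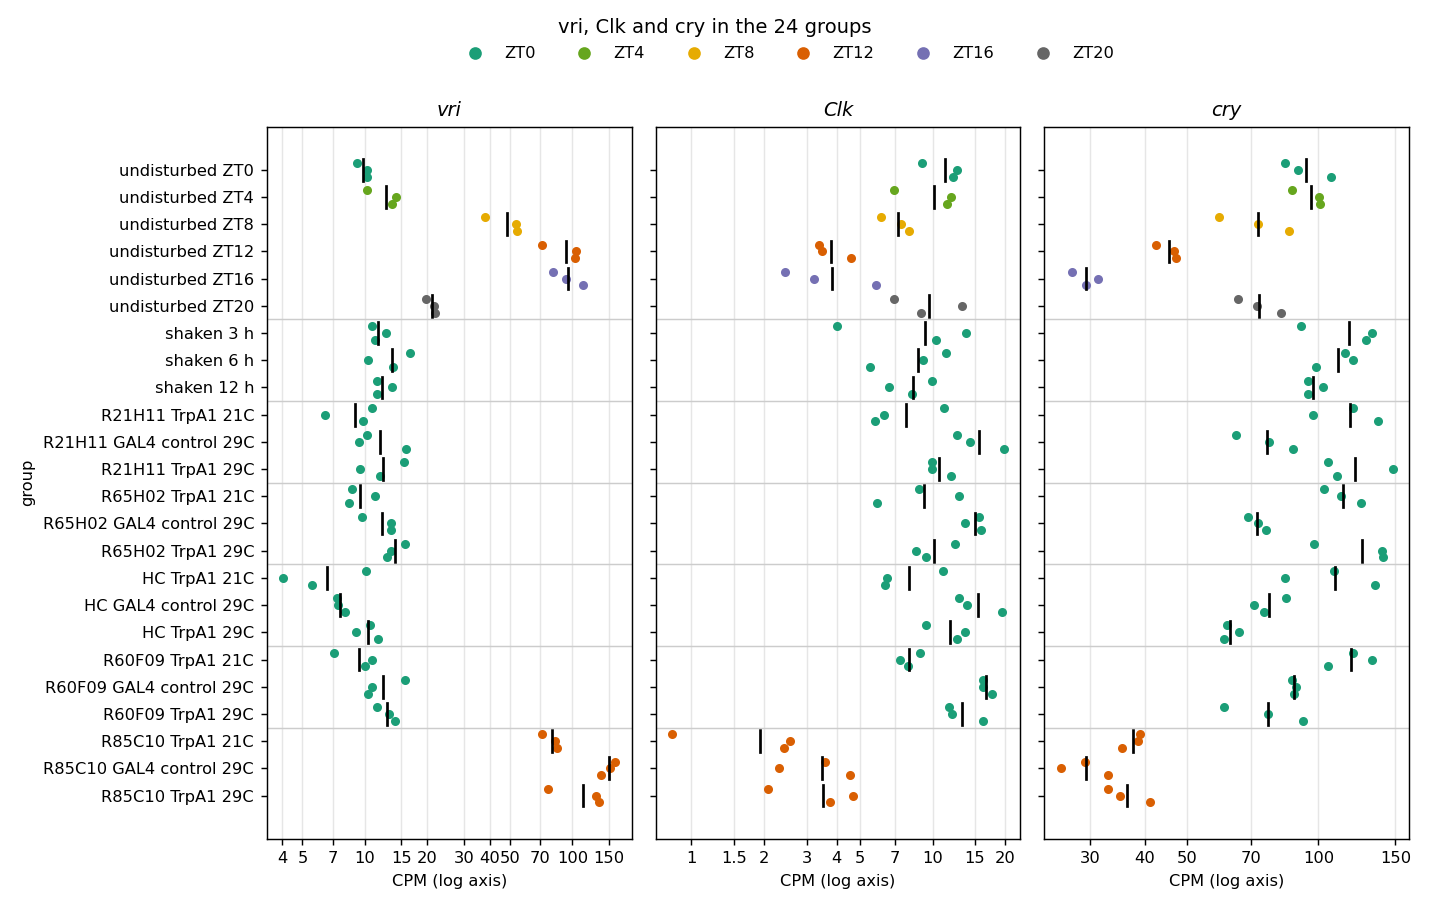
Level of vri, Clk and cry (CPM, log axis) in each of the 24 groups, with 1 point per library coloured by zeitgeber time and a black bar at the group mean (n = 3). Every ZT12 library of vri lies above every ZT0 library, and every ZT12 library of cry lies below.

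No GAL4 line was dissected at both times, so ZT12 and ZT0 were also set side by side between lines of different genotype. Taking all groups dissected at ZT12 (undisturbed iso31 and the 3 arms of R85C10) against all 16 groups dissected at ZT0, vri lay between 71.4 and 160.8 CPM in 12 libraries and between 4.05 and 16.5 CPM in 48. For cry the ranges were 25.7 to 47.2 CPM and 60.8 to 147.8 CPM. Neither gene overlapped. Clk ran from 0.832 to 4.68 CPM at ZT12 and from 4.02 to 19.7 CPM at ZT0, with a narrow overlap.

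R85C10 was set against each wake-promoting line arm by arm. In every arm the line and the time of dissection change together and cannot be told apart. In the GAL4 control 29C and TrpA1 29C arms the length of the warm shift changes with them. The TrpA1 21C arm had no warm shift in any line. In R85C10, vri stood at 160.8, 152.0 and 137.8 CPM in GAL4 control 29C. It was at 71.5, 82.3 and 84.7 CPM in TrpA1 21C and at 76.0, 129.9 and 133.7 CPM in TrpA1 29C. Its log2 difference from the wake lines was between 3.62 and 4.31 in the GAL4 control arm, between 3.06 and 3.56 in the TrpA1 21C arm and between 3.03 and 3.46 in the TrpA1 29C arm. Clk was lower in R85C10, by log2 differences from -2.25 to -2.09, from -2.27 to -2.02 and from -1.87 to -1.49 in the same order. In R85C10 TrpA1 21C it was at 0.832, 2.55 and 2.41 CPM, the lowest mean of the 24 groups. For cry the log2 differences ran from -1.57 to -1.29, from -1.65 to -1.54 and from -1.78 to -0.77. The GAL4 control arm of R85C10 held cry at 29.3, 25.7 and 33.0 CPM.

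In the GAL4 control arm, 0.445% of 9429 genes were called against all 4 wake lines and 3 of the 6 were among them, vri, Clk and cry. In the TrpA1 29C arm it was 1.37% of genes and the same 3, and in the TrpA1 21C arm 15% of genes and 5, with cyc and cwo added. All calls are edgeR calls at an adjusted p under 0.05, the highest for these 3 genes being 0.00103. They also held when the same replicate number was left out of every group. In the TrpA1 21C arm cyc was lower in R85C10 by log2 differences from -0.39 to -0.28 and cwo higher by 0.39 to 0.72. With 1 replicate number left out, 3 or 4 members instead of 5 were called against all 4 lines, and 3 with the length offset.

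**Figure D3:**
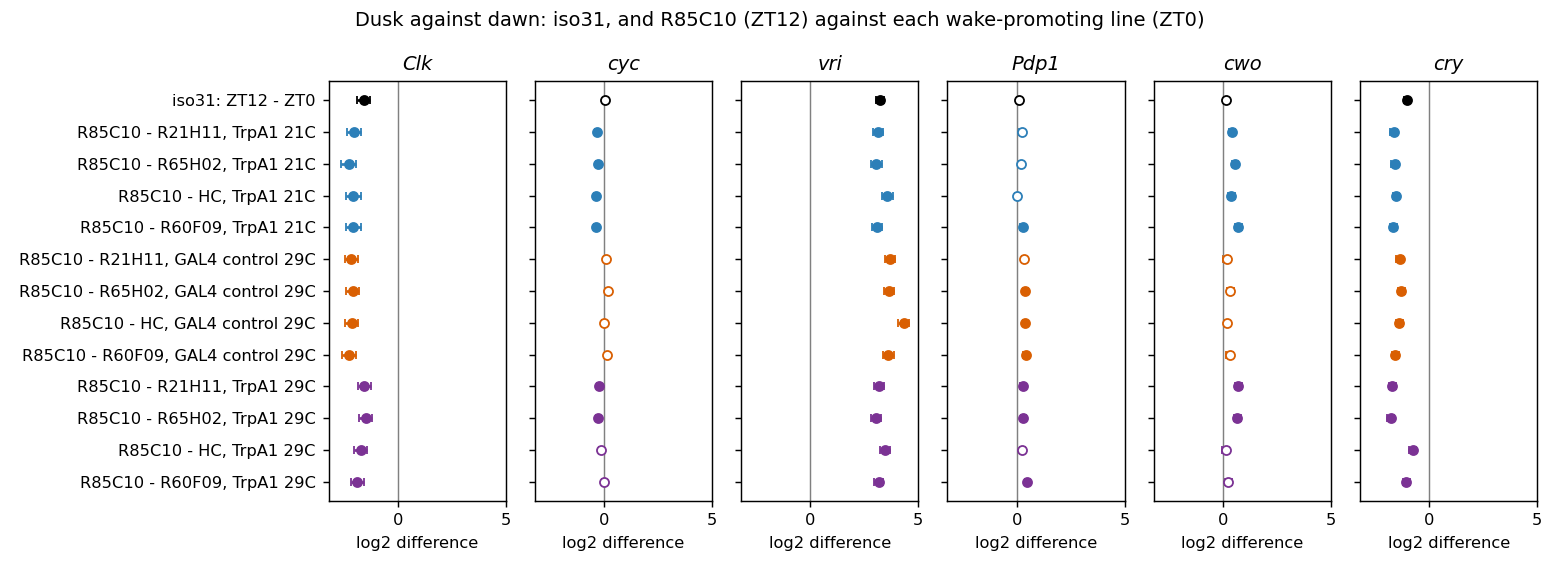
Log2 difference (horizontal axis, with SE bars) between ZT12 and ZT0 in undisturbed iso31, and between R85C10 and each wake-promoting line in each of 3 arms. Comparisons are listed on the vertical axis, with 1 panel per gene and filled points for edgeR calls. For vri the points lie at 3.03 and above, and for Clk and cry all points lie below 0.

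After shaking, no member differed from ZT0 by as much as vri, Clk and cry differed between ZT0 and ZT12. In the fit of the 3 shaken groups with undisturbed ZT0, 23.6% of 8845 genes were called after 3 h, 46.1% after 6 h and 16.3% after 12 h. Of the 6 clock genes, 1 was called after 3 h, 3 after 6 h and 0 after 12 h. These shares are no higher than the background at 3 and 12 h, and at 6 h 3 of 6 is near it. After 12 h, edgeR also called 0 of the 6 at an unadjusted p under 0.05, DESeq2 called 0 of 6 at an adjusted p under 0.05, and limma on log2(TPM + 1) called 2. The undisturbed flies belonged to the circadian profiling and the shaken flies to another experiment, so shaking and experiment cannot be told apart.

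The E-box repressor gene cwo was lower after 6 h of shaking, at 58.0, 59.2 and 63.4 CPM against 68.0, 69.7 and 74.0 CPM at ZT0. No library overlapped, and the log2 difference was -0.26 (SE 0.08, edgeR adjusted p = 0.0118). After 3 h it was -0.23 (SE 0.08, edgeR adjusted p = 0.04), a call lost without shaken 3 h replicate 1 or 3, shaken 6 h replicate 2 or ZT0 replicate 3 (adjusted p 0.0503 to 0.141). With the length offset the 6 h difference was 0.08 (adjusted p = 0.512) and in limma on log2(TPM + 1) -0.63 (0.00017).

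The activator gene cyc was at 53.3, 60.03 and 61.2 CPM after 6 h against 47.5, 47.8 and 49.8 CPM at ZT0. Its log2 difference was 0.24 (SE 0.09, edgeR adjusted p = 0.0309), 0.04 with the length offset and -0.17 in limma on log2(TPM + 1). The call was lost without shaken 3 h replicate 2, shaken 6 h replicate 2 or 3, or any 1 of the ZT0 libraries (adjusted p 0.0514 to 0.117). Among the 3 shaken groups, where 15.8% of genes were called, cyc was called alone (log2 range 0.31, edgeR adjusted p = 0.0471). That call was lost without any 1 of the shaken 3 h libraries, or shaken 6 h replicate 2 or 3 (adjusted p 0.0621 to 0.18).

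After 6 h of shaking vri was at 16.5, 10.3 and 13.7 CPM, each above the highest ZT0 library (log2 difference 0.43, SE 0.17, edgeR adjusted p = 0.0457). The call was kept in 1 of 12 fits that left out a library, the one without shaken 6 h replicate 2, and without shaken 6 h replicate 1 the difference was 0.23 (adjusted p = 0.318). It was 0.67 with the length offset (adjusted p = 0.012) and 0.01 in limma on log2(TPM + 1). Pdp1, which was not called in edgeR at 6 h (log2 difference 0.04), differed by 0.46 with the length offset (adjusted p = 8.44e-05) and by -0.37 in limma on log2(TPM + 1) (0.000958). Log2 TPM shifts the median of all genes by -0.21 at 3 h, -0.35 at 6 h and -0.21 at 12 h, so its values are read against those medians. cry was called after 3 h once shaken 3 h replicate 1 was left out (log2 difference 0.47, edgeR adjusted p = 0.00457). After 6 h, where 46.1% of all genes were called, 7 of 12 other clock genes (2 higher, 5 lower) and 6 of 10 tested regulators (all lower) were called, shares near that background. Of 15 tested output genes 8 were called higher and 6 lower. The photoreceptor sum was between 699.5 and 1551 CPM after 6 h, with 1 of 13 markers called. The neuronal sum was between 8212 and 8651 CPM after 6 h and between 11029 and 11171 CPM at undisturbed ZT0, with 7 of 8 markers called lower. The part of these markers in the results was not tested.

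**Figure D4:**
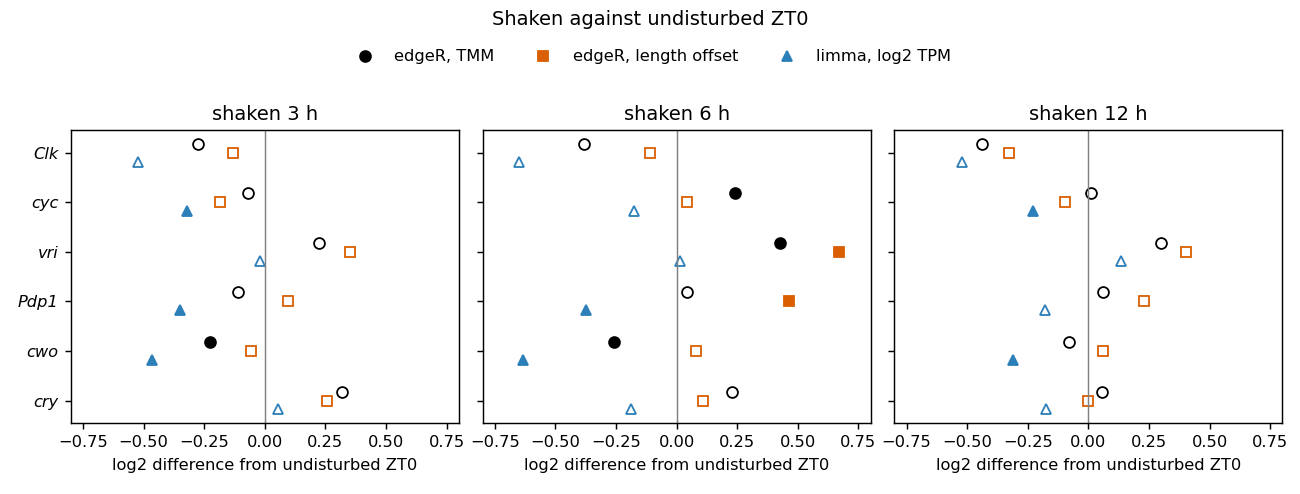
Log2 difference from undisturbed ZT0 (horizontal axis) for the 6 genes (vertical axis), with a panel each for 3, 6 and 12 h of shaking. Points show edgeR on TMM-scaled counts, edgeR with a length offset, and limma on log2(TPM + 1), filled for an adjusted p under 0.05. The methods give cwo -0.26, 0.08 and -0.63 at 6 h.

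Whether activating each set of neurons changed the clock genes was asked with both controls of a line. A gene counted where TrpA1 29C differed from GAL4 control 29C and from TrpA1 21C in the same direction, each at an edgeR adjusted p under 0.05. By this rule 0 of the 6 were called in any of the 5 lines. Among all genes tested the share was 0.0898% for R60F09, 0.523% for HC, 0.955% for R85C10, 1.45% for R21H11 and 17.5% for R65H02. For the mean of the 4 wake lines it was 10.9%, also with 0 of the 6. DESeq2 called 0 as well. With the length offset vri in R65H02 passed both contrasts, at log2 differences of 0.50 (adjusted p = 0.0322) and 0.68 (0.0062). In the mean of the wake lines 1 of the 6 passed both with that offset, and 1 on log2 TPM. On log2 TPM 1 of the 6 passed both in R65H02 as well. Leaving out 1 library made a call in 2 lines. Without R21H11 TrpA1 29C replicate 3, Pdp1 was lower than in both controls (log2 differences -0.30 and -0.54, edgeR adjusted p = 0.0491 and 0.0299). Without R65H02 TrpA1 29C replicate 1, cry was higher than in both, by 0.33 over TrpA1 21C (edgeR adjusted p = 0.0154).

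**Figure D5:**
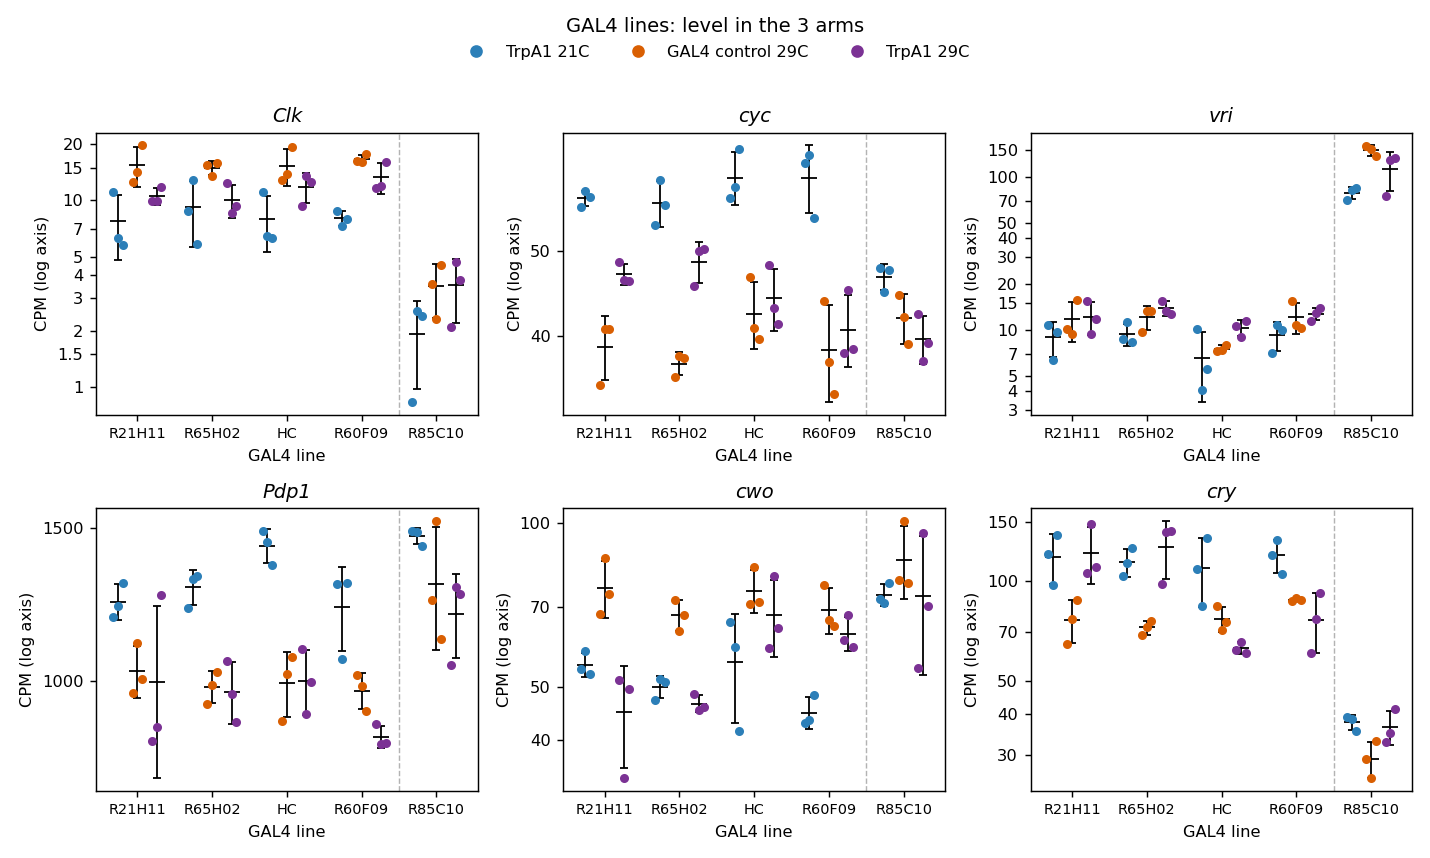
Level of each gene (CPM, log axis) in the 3 arms of the 5 GAL4 lines, with 1 point per library, a horizontal bar at the mean and SD bars (n = 3). The dashed line sets off R85C10, dissected at ZT12. TrpA1 21C stands apart from both 29 °C arms for Pdp1 in HC, R65H02 and R60F09.

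The controls themselves differed. Over the 4 wake lines 68.4% of 9452 genes were called between GAL4 control 29C and TrpA1 21C, and 6 of the 6 clock genes. Clk lay between 12.6 and 19.7 CPM in the 12 warm GAL4 control libraries, with a median of 15.7, and between 5.77 and 12.9 CPM in the 12 libraries of TrpA1 21C, with a median of 7.61. It was higher by 0.94 on the log2 scale (SE 0.13, edgeR adjusted p = 1.56e-07). cyc, encoding its partner, was lower by 0.57 log2 units (a log2 difference of -0.57, SE 0.05, edgeR adjusted p = 1.96e-11), with medians of 38.8 and 58.2 CPM and ranges that did not overlap. cry differed by -0.54 (SE 0.08, edgeR adjusted p = 8.27e-07), cwo by 0.50 (SE 0.07) and vri by 0.34 (SE 0.12, edgeR adjusted p = 0.0172). The vri call ended with the length offset (0.12, adjusted p = 0.424) and without replicate 2 (adjusted p = 0.0583) or replicate 3 (0.224). Pdp1 differed by -0.36 (SE 0.05), but by 0.04 in limma on log2(TPM + 1), a scale on which the median gene was at 0.29.

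These control differences were alike in sign across the lines. Clk was higher by 1.02 in R21H11, 0.72 in R65H02, 0.94 in HC and 1.09 in R60F09, called in each (edgeR adjusted p = 0.0299, 0.0271, 0.0121 and 0.000467). The background was 16.5%, 48.3%, 33.4% and 48.9% of genes called in the same order. cyc and cry were also called in each of the 4, with log2 differences from -0.62 to -0.51 for cyc and from -0.64 to -0.41 for cry. The test of a difference between the lines called 0.0741% of genes and 0 of the 6 in edgeR, with 0 at an unadjusted p under 0.05 and 0 in DESeq2. In single lines several calls rested on few libraries. The Clk call was lost in R21H11 without GAL4 control replicate 1, 2 or 3 or TrpA1 21C replicate 2 or 3, in R65H02 without GAL4 control replicate 1 or 3 or TrpA1 21C replicate 1 or 3, and in HC without GAL4 control replicate 3 (adjusted p 0.0603 to 0.129). The cry call was lost in R21H11 without GAL4 control replicate 1, 2 or 3 or TrpA1 21C replicate 1 or 3, in HC without GAL4 control replicate 2 or 3, and in R60F09 without GAL4 control replicate 1, 2 or 3 or TrpA1 21C replicate 2 (adjusted p 0.0577 to 0.156). The cyc call was lost in R21H11 without GAL4 control replicate 1 or TrpA1 21C replicate 3 (0.0533 to 0.065). With the length offset the Clk call ended in R21H11 and R65H02 (adjusted p = 0.0598 and 0.0745) and the cry call in R21H11 and R60F09 (0.0537 and 0.077). In limma on log2(TPM + 1) the cyc call ended in R21H11, HC and R60F09 (log2 differences from -0.19 to -0.13), and cry in R60F09 was at 0.09, opposite in sign. The cry call ended there in R21H11 (-0.25, adjusted p = 0.238) and HC (-0.12, 0.414) too.

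Of the other clock genes 11 of 12 were called over the wake lines, 7 higher and 4 lower, and 16 of 16 output genes. The 8 of 11 regulators called were near the 68.4% of all genes. The mitochondrial share averaged between 2.08% and 2.44% in the wake GAL4 controls and between 3.39% and 6.05% in their TrpA1 21C arms, and 5 of 6 tested fat body markers were called. Their part in the clock gene differences was not tested.

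Against the GAL4 control at the same temperature, members were called in R21H11 and R65H02. In R21H11, where 47.2% of genes were called, cwo stood at 51.6, 34.1 and 49.5 CPM against 68.2, 86.1 and 73.9 CPM, a log2 difference of -0.75 (SE 0.15, edgeR adjusted p = 0.00437). cry was at 105.3, 147.8 and 110.2 CPM against 64.8, 76.9 and 87.4 CPM (log2 difference 0.66, SE 0.17, edgeR adjusted p = 0.0101). Neither overlapped, and both calls ended with the length offset, at -0.22 (adjusted p = 0.141) for cwo and 0.47 (0.06) for cry. In R65H02, where 53.8% were called, cwo differed by -0.55 (SE 0.08, edgeR adjusted p = 6.9e-05) and cry by 0.79 (SE 0.13, edgeR adjusted p = 0.000509). The cwo difference in R65H02 was -0.12 with the length offset (adjusted p = 0.237). cyc was called higher in both lines, by 0.27 and 0.38, but with the length offset it was at -0.02 in R21H11 and 0.17 in R65H02, neither called. With 1 library left out, the R21H11 call of cyc was kept in 1 of 9 fits, the one without TrpA1 29C replicate 2.

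Other readouts moved with these results. The mitochondrial share averaged 4.50% in R21H11 TrpA1 29C and 4.99% in R65H02 TrpA1 29C, against 2.08% and 2.21% in their GAL4 controls. The neuronal marker sum was 7486 ± 1147 CPM and 7956 ± 403.5 CPM (SD, n = 3) against 11233 and 11482 CPM, with 7 of 8 markers called lower in each line. The fat body sum averaged 1421 and 1337 CPM against 500.4 and 538.8 CPM. Their part in the results was not tested.

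Averaged over the 4 wake lines, 56.9% of genes were called against the GAL4 control and 4 of the 6: Clk at -0.45, cwo at -0.39, cry at 0.25 and cyc at 0.20 log2 units. Of these, cwo was called in every alternative run, at -0.13 with the length offset (adjusted p = 0.0475). The length offset ended the calls of Clk (-0.24, adjusted p = 0.108), cry (0.14, 0.157) and cyc (0.05, 0.43). Leaving out replicate 2 ended those of cry (adjusted p = 0.233) and cyc (0.0548), and on log2 TPM cyc was just below 0. The mean for cry pools lines of opposite sign, higher in R21H11 and R65H02 and lower in HC and R60F09. The test between lines, given below, called cry and cwo.

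In HC and R60F09, 0.989% and 0.247% of genes were called against the GAL4 control and 0 of the 6. At an unadjusted p under 0.05 edgeR passed 0 of the 6 in either line, and DESeq2 called 0. In HC cry stood at 61.9, 65.7 and 60.8 CPM against 84.3, 71.3 and 75.2 CPM in the GAL4 control. The libraries did not overlap, and the log2 difference was -0.29 (edgeR adjusted p = 0.348). In R60F09 it was -0.21 (adjusted p = 0.731).

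The 4 lines were then tested for a difference among their contrasts of TrpA1 29C with each control. Each contrast also changes the transgene or the temperature, so neither isolates activation. The contrast for cry spanned 1.06 log2 units over the lines against the GAL4 control (edgeR adjusted p = 0.000894) and 0.94 against TrpA1 21C (adjusted p = 0.0015). In these tests 36.7% and 41.6% of genes differed, and 2 of the 6 in each, cry and cwo, a share no higher than that background. The cry calls ended without replicate 2 of every group (adjusted p = 0.0584 and 0.0735). For cwo the spans were 0.62 (adjusted p = 0.0213) and 0.74 (0.00866). They were 0.14 and 0.17 with the length offset. The first ended without any 1 replicate (adjusted p up to 0.459) and the second without replicate 2 (0.50, adjusted p = 0.229). The mitochondrial share given above for TrpA1 29C of R21H11 and R65H02 averaged 1.98% in that arm of HC and 1.84% in that of R60F09, and the neuronal sum averaged 10343 and 10088 CPM there. Their part in the differences between lines was not tested.

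Against TrpA1 21C, R60F09 TrpA1 29C showed 5 of the 6 called, with 44.7% of genes called: Clk at 0.75, cwo at 0.49, cyc at -0.56, cry at -0.62 and Pdp1 at -0.48 log2 units, where Pdp1 was at 0.07 in limma on log2(TPM + 1). The length offset ended the calls of Clk (adjusted p = 0.0555) and cwo (0.319), and log2 TPM those of cyc, cry and Pdp1. In HC, where 33.5% were called, cry was lower by 0.78 log2 units (a log2 difference of -0.78, SE 0.13, edgeR adjusted p = 0.00145), Pdp1 differed by -0.51 and cyc by -0.45. On log2(TPM + 1) the last pair stood at -0.15 and -0.11, and neither was called. In R65H02, where 30.3% were called, vri differed by 0.56 (edgeR adjusted p = 0.0269) and Pdp1 by -0.40. The vri call was lost without TrpA1 21C replicate 1 or 3 or TrpA1 29C replicate 1 or 2 (adjusted p 0.0572 to 0.0859). In R21H11 3.03% of genes were called and 0 of the 6, with 1 at an unadjusted p under 0.05 and 0 in DESeq2. Averaged over the 4 wake lines, 44.3% of genes were called against TrpA1 21C and 5 of the 6: vri at 0.54, Clk at 0.49, cry at -0.29, cyc at -0.37 and Pdp1 at -0.41 log2 units. The Clk call ended without replicate 3 (adjusted p = 0.131), and the cry call without replicate 1 (0.0994) and on log2(TPM + 1) (-0.13, adjusted p = 0.116). Here too the mean for cry pools unlike lines: its group mean was lower in HC and R60F09 but not in R21H11 or R65H02.

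In R85C10 vri was the only one of the 6 called between arms in the edgeR fit of the line's 9 libraries on TMM-scaled counts. Its GAL4 control 29C libraries, between 137.8 and 160.8 CPM, stood above all 3 TrpA1 21C libraries, between 71.5 and 84.7 CPM (log2 difference 0.92, SE 0.18, edgeR adjusted p = 0.0113). Here 9.02% of genes were called, and vri alone of the 6. The call was lost without GAL4 control replicate 1 (0.87, adjusted p = 0.0551). With the length offset cry was called in this contrast too (log2 difference -0.38, adjusted p = 0.036). Between TrpA1 29C and TrpA1 21C 18.7% of genes were called and 0 of the 6, with 3 at an unadjusted p under 0.05 and 1, vri, in DESeq2 (adjusted p = 0.0293). In edgeR vri differed by 0.52 (adjusted p = 0.0669), and by 0.72 (adjusted p = 0.000225) without TrpA1 29C replicate 1, which was the lowest of the 3. With the length offset this contrast called vri and cyc (log2 differences 0.60 and -0.33, adjusted p = 0.0413 and 0.0135). All 72 libraries in 1 fit called vri, cyc and Pdp1 (edgeR adjusted p = 0.0416, 0.0393 and 0.0203). Against GAL4 control 29C, where 1.44% of genes were called, vri differed by -0.40 (edgeR adjusted p = 0.36). There 0 of the 6 were called, with 2 at an unadjusted p under 0.05 and 0 in DESeq2.

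The genes with the most similar pattern over the 24 group means were listed by Pearson's r of log2 CPM among 8301 genes, as a description over groups that share strains, arms and time. For vri these were per (r = 0.93), tim (0.88) and CNMa (0.81). For Clk they were CG10514 (0.87), CG8547 (0.86) and CG10513 (0.76). For cry they were CG5793 (0.92), Ugt35b (0.92) and CG6287 (0.90). The flatter genes were matched by others: cyc by Atox1 (0.94), Scgbeta (0.94) and CG7860 (0.93), Pdp1 by Bacc (0.91), Caper (0.90) and dpa (0.88), and cwo by Top2 (0.94), tefu (0.94) and Not3 (0.94). per and tim had fitted daily peaks at ZT 13.3 and ZT 15.6, against ZT 13.1 for vri. They stood at 95.1, 133.7 and 81.5 CPM and at 327.1, 468.4 and 300.3 CPM in R85C10 GAL4 control 29C.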

How the data were processed

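RNA of whole Drosophila melanogaster brains was measured in 72 libraries, 24 groups of 3. The authors deposited a table of estimated counts per gene and a table of TPM (length-corrected abundance, scaled to 1000000 before unlisted features), made with kallisto 0.46.1 per the submitters' processing notes. The genome build, annotation and strand setting are not given in the sources used here, so no coordinates are printed. Gene IDs, transcripts and overlaps come from an Ensembl annotation. Each column was mapped to a sample by name (0 unmapped).

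Rounded estimated counts were filtered with filterByExpr, scaled with TMM and tested with edgeR 4.0.16 quasi-likelihood F-tests (robust) in R 4.3.3, with Benjamini-Hochberg adjustment over all genes of a fit and a threshold of 0.05. Fits held 18 libraries for zeitgeber time, 12 for shaking, 9 per line, 36 for the wake lines and 45 for R85C10 against them. CPM in the text is scaled over all 72 libraries. Depth limits precision: total counts ran from 4175587 to 13435817.

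Alternatives were DESeq2 1.42.0, RLE scaling, a block for the replicate number, no filter on low counts, a length offset (lowess span 0.3 per library of log2 expression on the ratio of count to TPM), limma 3.58.1 on log2 TPM with pseudocounts 1 and 0.1, all 72 libraries in 1 fit, cosine terms, omission of ZT20 and omission of each library. The fits were tested on simulated data. Similar genes were the 3 with the highest r over group means among genes whose mean log2 CPM was 1 or more, and members were all named. The genes and lists were chosen with earlier results of these data known. R85C10 followed the labels' protocol. Figures used Python 3.11.15, pandas 2.3.3 and matplotlib 3.10.9.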

Additional observations from a re-analysis of the deposited data

Results flagged for a closer look

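The difference between TrpA1 29C and each control varied among the 4 wake-promoting lines for cry and cwo, by the edgeR test between lines. The GAL4 control lacks the transgene and TrpA1 21C the warm shift, so neither contrast isolates activation. For cry the log2 differences spanned 1.061 against GAL4 control 29C (adjusted p = 0.000894) and 0.9428 against TrpA1 21C (adjusted p = 0.0015). For cwo they spanned 0.6158 (adjusted p = 0.0213) and 0.7363 (adjusted p = 0.00866) in the same order. Of all genes 36.7% and 41.6% were called in these tests, and 2 of the 6 members in each, a share no higher than that background. All 4 calls ended without replicate 2 of every group, with adjusted p of 0.0584 and 0.0735 for cry and of 0.459 and 0.229 for cwo. The cwo spans were 0.14 and 0.17 with the length offset. In TrpA1 29C the mitochondrial share averaged 4.50% in R21H11, 4.99% in R65H02, 1.98% in HC and 1.84% in R60F09. The neuronal marker sum averaged 7486, 7956, 10343 and 10088 CPM in the same order. Their part in the differences was not tested.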

How the results depend on the processing

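Over the 6 zeitgeber times vri, Clk and cry stayed called in every alternative run. That test gives a range between group means, which has no direction. Single contrasts of Clk did lose their calls, as given above and below. Of 246 results, DESeq2 left 234 on the same side of the threshold, RLE scaling 241, no low-count filter 236, all 72 libraries 228, the replicate block 219, the length offset 190 (188 with the replicate block) and limma on log2 TPM 187. The replicate block weakened 23 results and strengthened 4. Over zeitgeber times all 45 same-numbered pairs correlated positively (0.0603 to 0.558, mean 0.334, against a mean of -0.166 for other numbers), a hint from the data and not the design. Not every pair passed 0.1, so the numbers were not taken as a pairing. In the other fits the means lay between -0.0662 and 0.0547 and single pairs between -0.366 and 0.412. Of 1854 results with 1 library left out, 1687 were the same, 129 weaker and 38 stronger.

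Counts of called members moved as follows. Over zeitgeber times it was 5 on log2 TPM instead of 3 (3 to 5 with a library left out), and for ZT20 against ZT8 3 instead of 1 (1 to 2). For ZT12 against ZT0 leaving out a library gave 2 to 3 and for ZT16 against ZT4, with 3 called, 2 to 4. The latter was 4 in DESeq2, with the replicate block and with the length offset, which added Pdp1, and 2 on log2 TPM, where Clk was lost. After 3 h of shaking it was 0 with no low-count filter, the length offset (also with the replicate block) and all 72 libraries, and 3 on log2 TPM, instead of 1 (0 to 2). After 6 h it was 1 in DESeq2 and with all 72 libraries instead of 3 (1 to 3). After 12 h it was 2 on log2 TPM instead of 0 (0 to 0). Among shaken groups it was 0 with no low-count filter, the replicate block and log2 TPM instead of 1 (0 to 2). Against both controls it was 1 with the length offset, that offset with the replicate block, and log2 TPM instead of 0, in R65H02 (0 to 1) and in the mean of the wake lines (0 to 0). In R21H11 it was 0 to 1 with a library left out. For R85C10 TrpA1 21C against each wake line it was 3 with the replicate block and with the length offset, instead of 5 (3 to 4).

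The sign turned as follows, with the cause not tested. On log2 TPM the median of all genes shifts too, as given above for shaking and for the wake-line controls. A turned sign on that scale is therefore not by itself a change against other genes. With the length offset, and with the replicate block after it, Pdp1 was at 0.65 and 0.63 in R21H11 TrpA1 29C against GAL4 control, at 0.51 and 0.51 in R65H02, at 0.29 and 0.28 in the wake mean, and at -0.27 and -0.34 in R85C10 against R60F09 at 21C. cwo after 6 h of shaking was at 0.082 and 0.084, and cyc in R21H11 TrpA1 29C against GAL4 control at -0.020 and -0.019. Pdp1 in R85C10 TrpA1 29C was at -0.21 against R21H11 and -0.021 against R65H02 with the offset alone. On log2 TPM (+ 0.1 and + 1), cyc was at -0.18 and -0.18 in R21H11 TrpA1 29C against GAL4 control, at -0.0049 and -0.0048 in the wake mean, at -0.23 and -0.23 after 12 h of shaking, and at -0.18 and -0.17 after 6 h. It was at 0.12 and 0.12 in R85C10 TrpA1 29C against R21H11, at 0.015 and 0.015 against R65H02, and at 0.084 and 0.082 in R85C10 TrpA1 21C against R60F09. On the same scale Pdp1 was at -0.37 and -0.37 after 6 h of shaking, at 0.037 and 0.037 in the wake mean of GAL4 control against TrpA1 21C, and in R60F09 at 0.23 and 0.23 for that contrast and 0.067 and 0.067 for TrpA1 29C against 21C. cry in R60F09 GAL4 control against TrpA1 21C was at 0.094 and 0.093.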
